A study of Homo sapiens with 4 samples.

Results

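The genes described here make up the protein folding and quality-control machinery of the endoplasmic reticulum (ER). They are 36 genes chosen by name for their known roles as ER chaperones, disulfide isomerases, ER-associated degradation factors and parts of the unfolded protein response, and each matched 1 of the 22361 rows (genes or loci) of the deposited table. The RNA came from Jurkat, an established human T-cell acute lymphoblastic leukaemia line, in 4 libraries. In 2 control libraries the cells had been infected with lentivirus encoding an shRNA against GFP, and in 2 knockdown libraries with lentivirus carrying an shRNA that targets the long non-coding RNA ARIEL. All cells were exposed to polybrene, selected with 0.7 µg/ml puromycin for 36 h or longer, and harvested at 72 h from infection. A single cell line was used, and nothing in the labels tells whether replicates came from separate cultures, so p-values speak for the spread among these libraries, which may be technical. In bulk RNA, fewer cells making a transcript and less of it per cell cannot be told apart.

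Secreted and membrane proteins fold in the ER with the help of Hsp70 and Hsp90 chaperones, lectin chaperones that hold glycoproteins, and disulfide isomerases. Proteins that fail to fold are recognised by lectins and mannosidases, carried out through a membrane complex built around SEL1L and the ubiquitin ligase SYVN1, extracted by the ATPase VCP and degraded by the proteasome. When unfolded proteins accumulate, the sensors IRE1 (gene ERN1), PERK (gene EIF2AK3) and ATF6 start the unfolded protein response. IRE1 splices the XBP1 mRNA, whose product activates genes of degradation and folding, ATF6 activates chaperone genes, and PERK slows translation and favours ATF4.

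Values are on the log2 scale after the regularised log (rlog) transformation, which draws noisy values towards the gene's mean, so a difference between rlog values understates the change. The targeted transcript, listed as XLOC_005968 and linked to ARIEL from background knowledge of the study only, stood at rlog 12.02 and 11.91 in control and at 10.58 and 10.55 in knockdown libraries. All 14 T-cell and T-ALL marker genes passed the filter on low values (a mean of at least log2 of 10), against 3 of 7 myeloid and 0 of 5 erythroid markers. Of the 14, 3 were called higher and 6 lower, where 22.1% and 22.4% of all genes tested were. Of the 3 myeloid markers that passed, 0 were called. Of 7 epithelial and fibroblast markers 3 passed (KRT8, COL1A1 and VIM), 1 of them called higher and 2 lower. Converted back to the linear scale, the 7 summed to 79168 to 79463 in control and 69931 to 70599 in knockdown libraries. The median control rlog of the 7 was 0.81, so nearly all of this sum came from the 3 that passed. The part of the shift in this sum in the results below was not tested. EPCAM, KRT18, KRT19 and COL1A2 were under the filter. The table holds no counts, so the depth of each library is unknown.

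Among these genes most of the called degradation factors were lower and most of the called chaperones higher, while the lectin and disulfide folding genes had few calls, both of them lower. Of the 36 genes, all of which passed the filter, 14 were lower and 7 higher in the knockdown libraries (limma, Benjamini-Hochberg adjusted p under 0.05 over all genes, which is what called means here). That is 38.9% lower and 19.4% higher, where 22.4% and 22.1% of the 14601 genes tested were called in these directions and 44.4% in either. Among 13 degradation genes 9 were lower and 1 higher, with a median difference of -0.16. Among 9 chaperones and co-chaperones 5 were higher and 2 lower, with a median of 0.10. The difference between these groups of genes was not tested. The median over all 36 genes was -0.01 and that over all genes tested was 0.00. The 2 groups of libraries did not overlap for 25 of the 36 genes (69.4%), near the 70.7% of all genes for which this held. Without knockdown replicate 1 the higher genes numbered 4, and without knockdown replicate 2 they numbered 3, and DNAJB11 was the 1 rise called under every alternative that shares the spread between genes. The calls rest on a spread shared between genes of like level, since with each gene's own variance limma called 0 of the 36 genes, with 18 at an unadjusted p under 0.05.

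**Figure D1:**
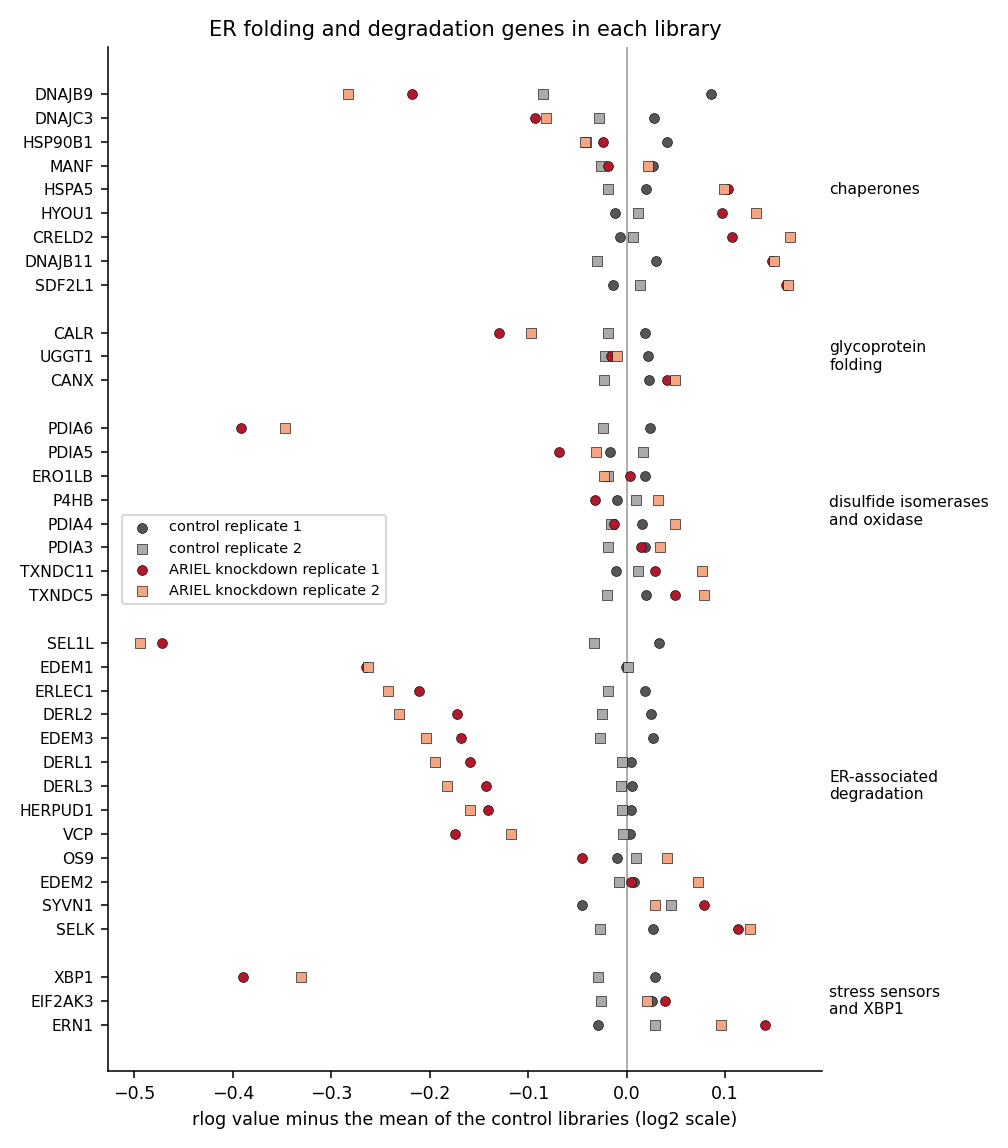
Each row is 1 gene, grouped by role, and each point is the rlog value of 1 library minus the mean of the control libraries (log2 scale). The knockdown points of SEL1L, PDIA6 and XBP1 lie farthest to the left, 9 degradation genes lie left of both control points, and 5 chaperone genes lie to the right.

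The same calls are in the authors' deposited table, made from the same libraries, whose fold changes are less shrunken than rlog differences. It has 14 of the 36 genes lower and 7 higher at an adjusted p under 0.05, the same genes in the same directions, where 19.3% of the 14551 genes with an adjusted p in that table were lower and 20.1% higher. The largest fall there was SEL1L at 1.83-fold, followed by PDIA6 at 1.58-fold and XBP1 at 1.57-fold. The largest rise was SDF2L1 at 1.24-fold. All 7 rises were thus small in both analyses.

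The degradation genes held the largest fall. SEL1L, the adaptor that ties substrates to the ubiquitin ligase in the ER membrane, had rlog values of 13.50 and 13.43 in control libraries and 12.99 and 12.97 in knockdown libraries. Both knockdown values were below both control values, and the difference was -0.48 ± 0.03 (SE, n = 2 per group; limma, adjusted p = 8.37e-46). SYVN1, the ligase that SEL1L binds, was not called (0.05 ± 0.04), and its groups overlapped. HERPUD1, a scaffold of the same complex whose own gene is induced by ER stress, fell by 0.15 ± 0.04. The difference between SEL1L and SYVN1 was not itself tested.

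The mannosidases and lectins that mark misfolded glycoproteins were lower for most members. EDEM1, a mannosidase-like protein that sends glycoproteins to degradation, had 14.66 in each control library against 14.39 and 14.40 in the knockdown libraries. EDEM1 differed by -0.26 ± 0.03 (SE, limma, adjusted p = 2.37e-15). That SE is the spread shared by genes of like level and does not reflect how close its own replicates were. EDEM3 fell by 0.19 ± 0.03, whereas EDEM2 was not called (0.04 ± 0.04). ERLEC1, an ER lectin, had 12.40 and 12.37 in control and 12.17 and 12.14 in knockdown libraries, and fell by 0.23 ± 0.04 (adjusted p = 3.36e-09). OS9, the other lectin of this step, was not called (-0.00 ± 0.03), and its groups overlapped.

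All 3 derlins were lower. These membrane proteins form part of the exit channel for degradation substrates. DERL2 fell by 0.20 ± 0.04, DERL1 by 0.18 ± 0.03 and DERL3 by 0.16 ± 0.04 (SE, n = 2 per group). DERL3 was by far the least abundant of the 36 genes, with rlog values of 6.92 and 6.91 in control and 6.77 and 6.73 in knockdown libraries. The shrinkage of rlog values is strongest at such levels, and the authors' deposited table gives DERL3 a log2 fold change of -0.58 ± 0.20 (SE). VCP, the ATPase that pulls substrates out of the membrane, fell by 0.15 ± 0.03. SELK, a selenoprotein that binds derlins and VCP, was the only degradation gene called higher (0.12 ± 0.04). Its call was lost when control replicate 2 (adjusted p = 0.0918), knockdown replicate 1 (0.0541) or knockdown replicate 2 (0.0995) was left out.

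The chaperones of the ER lumen were called higher for 5 of 9. HSPA5, the Hsp70 chaperone BiP that also holds the stress sensors inactive, had 13.60 and 13.57 in control libraries and 13.69 and 13.68 in knockdown libraries. The groups did not overlap, and the difference was 0.10 ± 0.03 (SE, n = 2 per group; limma, adjusted p = 0.00574). That call was lost without control replicate 2 (adjusted p = 0.0702), knockdown replicate 1 (0.0612) or knockdown replicate 2 (0.0583). HYOU1, an Hsp70-like nucleotide exchange factor for BiP, rose by 0.11 ± 0.03, and its adjusted p was 0.0669 without knockdown replicate 2.

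BiP works with J-domain proteins, and these went in both directions. DNAJB11, a co-chaperone that hands substrates to BiP, had 13.09 and 13.03 in control and 13.21 in each knockdown library, and rose by 0.15 ± 0.03 (limma, adjusted p = 4.49e-05). SDF2L1, its partner in the lumen, had 11.31 and 11.34 in control and 11.49 in each knockdown library, a rise of 0.16 ± 0.04 (adjusted p = 0.000211). DNAJB9, a J-domain protein that delivers substrates for degradation and is a classic target of spliced XBP1, went the other way. Its values were 10.12 and 9.95 in control libraries, a wide gap for these genes, and 9.82 and 9.75 in knockdown libraries. The difference was -0.25 ± 0.05 (adjusted p = 8.45e-07). The authors' deposited table gives DNAJB9 a log2 fold change of -0.51 ± 0.13 (SE).

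The remaining luminal factors were called in both directions or not at all. DNAJC3, a J-domain protein also known as p58IPK, was lower by a small amount (-0.09 ± 0.03), a call lost without control replicate 1 (limma, adjusted p = 0.232), knockdown replicate 1 (0.148) or knockdown replicate 2 (0.108). CRELD2, a secreted ER stress protein with disulfide isomerase activity, was higher (0.14 ± 0.04), with an adjusted p of 0.116 without knockdown replicate 2. HSP90B1, the ER Hsp90 known as GRP94, was not called (-0.03 ± 0.03), nor was the secreted factor MANF (0.00 ± 0.04, with overlapping groups). A difference that misses the threshold does not show that levels were equal.

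In the lectin cycle that folds glycoproteins, only CALR of 3 genes was called. Calreticulin (CALR) had 15.67 and 15.63 in control libraries and 15.52 and 15.56 in knockdown libraries. The groups did not overlap and the difference was -0.11 ± 0.03 (SE, n = 2 per group; limma, adjusted p = 0.00160). The call was lost without control replicate 1 (0.0532) or knockdown replicate 1 (0.0520). Calnexin (CANX), its membrane-bound relative, had a difference of 0.04 ± 0.03, and UGGT1, which returns unfolded glycoproteins to both lectins, one of -0.01 ± 0.03. Per kilobase of transcript, CALR, HSP90B1 and CANX were the most abundant of the 36 genes in control libraries. Their mean rlog less the log2 of transcript length in kilobases was 14.73, 14.50 and 14.37, against 5.27 for DERL3.

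Of the 8 disulfide-forming enzymes, PDIA6 alone was called. PDIA6, a protein disulfide isomerase known to restrain IRE1 and PERK signalling, had 14.71 and 14.67 in control libraries against 14.30 and 14.34 in knockdown libraries. The gap between groups was far larger than that between replicates, and PDIA6 fell by 0.37 ± 0.03 (SE, n = 2 per group; limma, adjusted p = 1.98e-29). The differences of P4HB, PDIA3, PDIA4, PDIA5, TXNDC5, TXNDC11 and the oxidase gene ERO1LB lay between -0.05 and 0.06. TXNDC5 at 0.06 ± 0.03 was nearest to the threshold (adjusted p = 0.0894).

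The sensors and their transcription factor did not move together. XBP1, the transcription factor that IRE1 activates by splicing its mRNA, had 13.55 and 13.49 in control libraries and 13.13 and 13.19 in knockdown libraries. It fell by 0.36 ± 0.03 (SE, n = 2 per group; limma, adjusted p = 3.88e-26). The table has 1 row for XBP1, so its spliced and unspliced mRNA cannot be told apart. ERN1, which encodes IRE1, had 11.85 and 11.91 in control and 12.02 and 11.97 in knockdown libraries and was higher by 0.12 ± 0.04 (adjusted p = 0.00498). Without control replicate 1 or knockdown replicate 1 the adjusted p for ERN1 was 0.0854 or 0.124. EIF2AK3, which encodes PERK, had 11.75 and 11.70 in control and 11.77 and 11.75 in knockdown libraries, overlapping groups with a difference of 0.03 ± 0.04.

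A trend with base composition ran through these libraries. Over the 12719 tested genes with GENCODE 29 transcripts, the difference between groups was correlated with transcript GC content (Spearman's rho 0.41, across genes, which are not independent replicates, and within the same 4 libraries). Between replicates, taken as 2 minus 1, the rho was 0.59 in control and 0.41 in knockdown libraries. Median GC content was 45.2% for the degradation genes and 49.5% for the chaperones. After the trend with GC content and transcript length was removed from each library, the 9 lower degradation genes were called lower, with a median of -0.13 over the 13; EDEM3 then stood at -0.10 and DERL2 at -0.13. The chaperones then had 3 called higher and 1 lower. SDF2L1 (0.05, limma, adjusted p = 0.150), CRELD2 (0.06, 0.0914) and DNAJC3 (-0.01, 0.660) were no longer called.

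With that trend removed, 10 of the 36 genes were higher and 14 lower, where 29.0% and 24.1% of all 12719 genes were. Those newly called were CANX (0.10), ERO1LB (0.09), EIF2AK3 (0.08), PDIA3 (0.07) and TXNDC5 (0.06) on the higher side and P4HB (-0.05) on the lower. SEL1L went from -0.48 to -0.40, XBP1 from -0.36 to -0.38 and PDIA6 from -0.37 to -0.35, and these stayed the 3 largest falls.

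**Figure D2:**
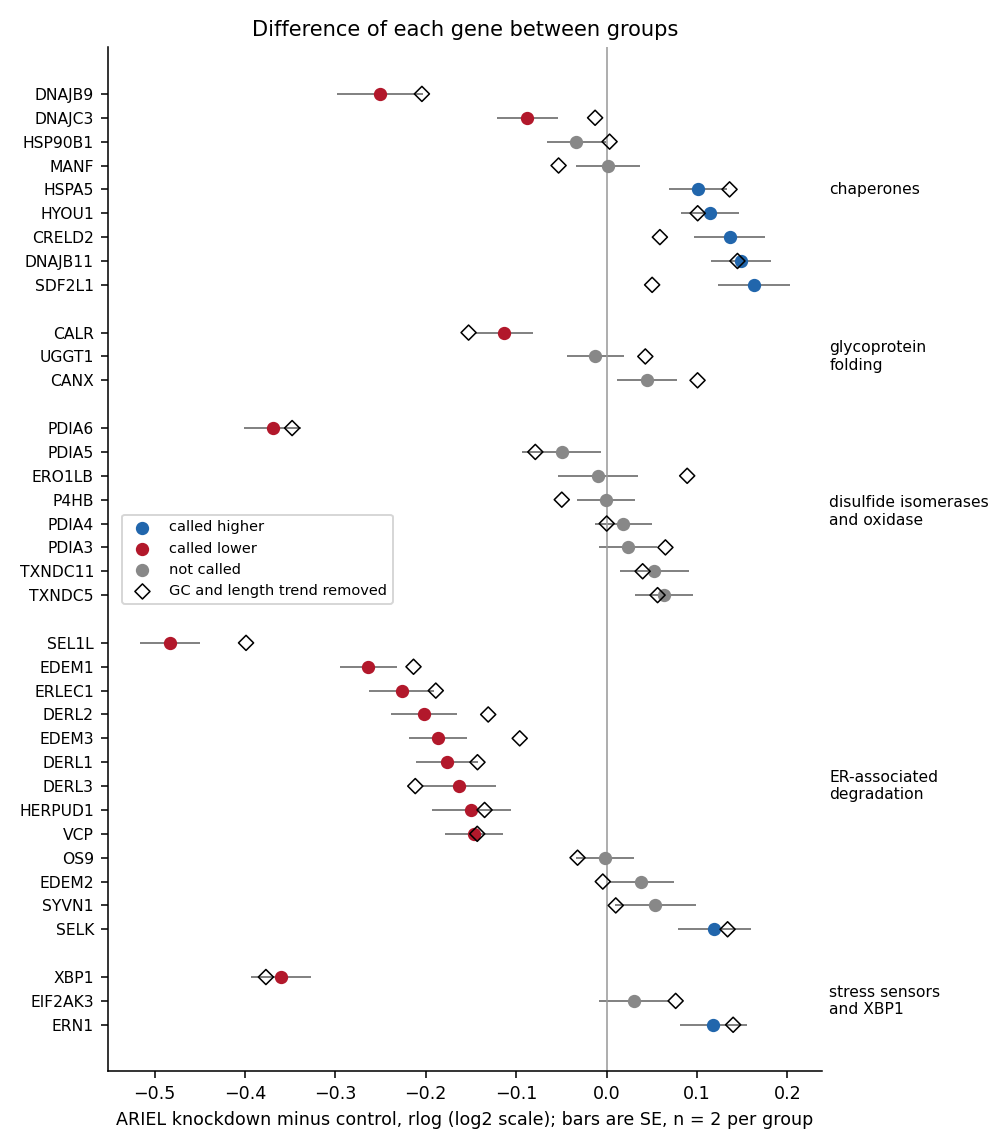
Filled points give each gene's rlog difference, ARIEL knockdown minus control, with its SE (n = 2 per group), coloured by whether it was called; open diamonds give the difference after the trend with GC content and transcript length was removed. The diamonds of SEL1L (-0.40), XBP1 (-0.38) and PDIA6 (-0.35) stay far left, while those of SDF2L1 (0.05) and CRELD2 (0.06) move towards 0.

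Many promoters of this machinery carry the ER stress response element (ERSE), the binding site of ATF6 and XBP1 with NF-Y. Promoter windows of 300 bases, 250 before and 50 after each annotated start, were taken from RefSeq on GRCh38.p14, a newer build than the hg19 named for the table, and 33 of the 36 genes had at least 1 window. DERL1, DERL3 and PDIA3 had none. On either strand, ERSE (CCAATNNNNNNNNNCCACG) was found for 8 of the 33 genes (24.2%), against 25 of all 27305 genes with a window (0.0916%). The 25 include those 8, and the 36 genes were chosen in part as members of this response, so the contrast is only descriptive. ERSE-II (ATTGGNCCACG) was found for 3 of 33, against 19 of all genes (0.0696%). Both share the letters CCACG and a CCAAT box, in opposite orientation in ERSE-II. These 11 genes are shown because their windows match the letters of either element, and their calls differed in direction. The part of the elements in those calls was not tested.

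The promoter of HSPA5 (chr9:125241294-125241593, minus strand, GRCh38.p14) and that of XBP1 at the first of its listed starts (chr22:28800520-28800819, minus strand) are printed whole, since HSPA5 rose and XBP1 fell. Capitals mark the fixed letters of ERSE, which begin 66 bases before the start in HSPA5 and 52 before it in XBP1.
HSPA5: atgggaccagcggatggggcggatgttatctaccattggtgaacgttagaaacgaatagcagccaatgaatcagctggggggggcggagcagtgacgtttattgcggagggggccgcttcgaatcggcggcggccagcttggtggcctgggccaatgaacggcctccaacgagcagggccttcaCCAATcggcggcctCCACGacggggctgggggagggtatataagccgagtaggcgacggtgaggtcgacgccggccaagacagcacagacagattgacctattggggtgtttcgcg
XBP1: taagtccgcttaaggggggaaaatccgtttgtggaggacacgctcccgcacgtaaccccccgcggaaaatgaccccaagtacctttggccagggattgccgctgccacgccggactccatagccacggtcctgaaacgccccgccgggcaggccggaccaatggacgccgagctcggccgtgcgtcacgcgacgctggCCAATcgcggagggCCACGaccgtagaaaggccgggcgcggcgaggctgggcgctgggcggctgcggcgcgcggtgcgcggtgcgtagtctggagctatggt

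The other ERSE matches are given with up to 10 bases on each side, on the strand that reads CCAAT first, with the fixed letters in capitals.
HSP90B1, chr12:103930206-103930244, plus strand: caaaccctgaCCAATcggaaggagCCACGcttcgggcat
HSP90B1, chr12:103930311-103930349, minus strand: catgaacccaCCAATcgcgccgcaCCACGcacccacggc
CRELD2, chr22:49918544-49918582, minus strand: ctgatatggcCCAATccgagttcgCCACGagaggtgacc
CALR, chr19:12938374-12938412, minus strand: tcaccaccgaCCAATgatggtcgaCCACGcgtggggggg
CANX, chr5:179698768-179698806, plus strand: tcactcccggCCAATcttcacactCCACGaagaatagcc
PDIA6, chr2:10812843-10812881, minus strand: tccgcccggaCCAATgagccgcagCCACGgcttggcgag
ERO1LB, chr1:236282173-236282208, plus strand: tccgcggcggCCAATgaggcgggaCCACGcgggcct

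The ERSE-II matches are given the same way, on the strand that reads ATTGG first.
HYOU1, chr11:119057370-119057400, plus strand: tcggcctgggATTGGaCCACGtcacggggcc
HYOU1, chr11:119057264-119057294, plus strand: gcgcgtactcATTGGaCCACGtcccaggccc
SDF2L1, chr22:21642104-21642134, minus strand: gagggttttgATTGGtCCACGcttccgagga
HERPUD1, chr16:56932015-56932045, plus strand: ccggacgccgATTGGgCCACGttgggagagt

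Genes with either element were called in both directions. Of the 11, 4 rose (HSPA5, HYOU1, SDF2L1 and CRELD2) and 4 fell (PDIA6, XBP1, HERPUD1 and CALR). HSP90B1, CANX and ERO1LB were not called. That is 36.4% in each direction, where 22.1% of all genes tested were higher and 22.4% lower. The median difference of the 11 was -0.01. With the GC and length trend removed 4 were again higher and 4 lower. SDF2L1 and CRELD2 were then not called, and CANX and ERO1LB were higher. Of the 22 genes with a window and neither element, 3 rose (13.6%) and 8 fell (36.4%), with a median of 0.00. SEL1L, EDEM1 and ERLEC1 were among these 22, although with 1 mismatch allowed SEL1L, SELK, SYVN1 and DNAJC3 also matched ERSE, and the genes with an ERSE match went from 8 to 15. A core of the unfolded protein response element (TGACGTGG), which contains the complement of CCACG, was found in HYOU1, VCP, TXNDC5 and TXNDC11, 12.1% of the 33 genes against 0.927% of all genes. The HYOU1 match overlaps 1 of its ERSE-II matches. The amino acid response element ATTGCATCA, bound by ATF4 and its partners, was found in 0 of the 33 genes and in 80 of all genes (0.293%). A match is a string of letters in the window, not a site shown to be bound.

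**Figure D3:**
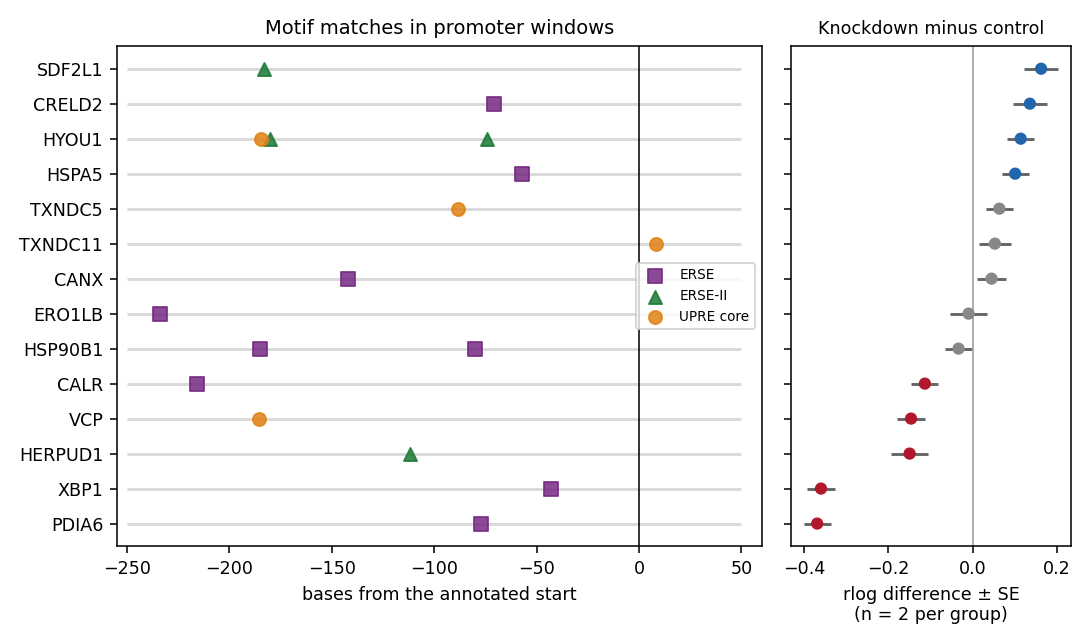
Left, position of each motif match relative to the annotated start in bases, 1 row per gene with a match; right, the gene's rlog difference with SE (n = 2 per group), blue where called higher, red where called lower and grey where not called. Genes with ERSE lie on both sides of 0, from CRELD2 (0.14) to PDIA6 (-0.37), and SDF2L1, with ERSE-II, is highest (0.16).

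The 3 largest falls share short words in their 3′ UTRs. The words AGATGAC and GATGACA were picked in an earlier analysis of these same libraries because genes carrying them were lower, so their direction here is not independent evidence. In the longest coding transcript of GENCODE 29, 6 of the 36 genes (16.7%) carried either word, close to the 15.6% of the 12508 tested genes with a 3′ UTR. They were SEL1L, PDIA6, XBP1, DERL2, EDEM3 and HSPA5. SEL1L carried AGATGAC at 3 places and GATGACA at 1, in a 3′ UTR of 5423 bases, and XBP1 carried AGATGAC at 2 places. The words are shown in capitals with their surroundings, with the position of the word's first base counted from the first base after the stop codon.
SEL1L, position 1948: aaaccacccaAGATGACtaccaactttc
SEL1L, position 2596: cttcgaacttGATGACAgtaaaaccctg
SEL1L, position 2816: agtaaatcaaAGATGACttcttttcaaa
SEL1L, position 4703: cagtgaccccAGATGACcttgactgacc
PDIA6, position 85: ctctacactcAGATGACtctaccagtgg
XBP1, position 161: aacctgtagaAGATGACctcgttccgga
XBP1, position 514: cagatctcatAGATGACccccaggtatt
HSPA5, position 1578: cagccattaaAGATGACctacagtgctg

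Of the 6 carriers 5 were lower, and HSPA5, which carries AGATGAC near the end of its 3′ UTR of 1739 bases, was higher. Their median difference was -0.28, with the GC and length trend left in. With it removed, SEL1L stood at -0.40, XBP1 at -0.38, PDIA6 at -0.35, DERL2 at -0.13, EDEM3 at -0.10 and HSPA5 at 0.14. Over all tested genes with a 3′ UTR, 41.5% of carriers and 19.7% of the others were lower. The words were picked on these libraries for that direction, so this contrast is only descriptive. Among the 30 genes of this machinery without either word, 9 were lower and 6 higher, with a median of 0.00. The degradation genes EDEM1, ERLEC1, DERL1, DERL3, HERPUD1 and VCP are among these 9, with differences of -0.26 to -0.15. The words TGTTGTC and GTTGTCA, which that earlier analysis picked for higher carriers once other UTR properties were adjusted for, were carried by 8 of the 36 genes, of which 2 were higher and 3 lower. Over all tested genes with a 3′ UTR, 24.4% of their carriers and 24.0% of the others were higher. The shares called lower were 25.5% of carriers and 22.6% of the others. The part that the fall-associated words play in the falls of SEL1L, PDIA6 and XBP1 was not tested.

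Other genes of the same pathways were taken from lists drawn up by known role. Over 131 such genes with a row, 128 of which passed the filter, 26 were higher and 41 lower (20.3% and 32.0%, where 22.1% and 22.4% of all genes were), with a median of -0.02. Without knockdown replicate 2 the higher genes of these lists numbered 13. Among other chaperones and folding enzymes 7 of 30 were higher and 11 lower. They included DNAJC10, an ER disulfide reductase that works with EDEM1 (-0.30 ± 0.03, SE, n = 2 per group), the thioredoxin-related TMX3 (-0.26 ± 0.03, or -0.15 with the GC and length trend removed) and the peroxiredoxin PRDX4 (-0.23 ± 0.03). In the list of N-glycan transfer and trimming, 6 of 19 were lower and 1 was higher. Its leading genes, all lower, were OSTC (-0.55 ± 0.03) and STT3B (-0.50 ± 0.03), subunits of the oligosaccharyltransferase, and MCFD2 (-0.52 ± 0.04), a partner of the cargo lectin LMAN1.

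In the wider list of degradation genes calls went both ways. Of 38 other ER-associated degradation factors tested, 10 were higher and 7 lower (26.3% and 18.4%), near the 22.1% and 22.4% of all genes, with a median of 0.01. The ligase RNF139 (-0.31 ± 0.04, SE) and the deubiquitinase YOD1 (-0.29 ± 0.03, or -0.17 with the GC and length trend removed) were lower, and the ubiquitin-conjugating enzyme UBE2J2 (0.24 ± 0.04) was higher. The difference between this list and the 13 degradation genes above was not tested.

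The 3 arms of the response each had calls in both directions, with more genes lower than higher. Of all genes tested, 22.1% were higher and 22.4% lower. In the ATF6 arm 2 of 13 were higher and 5 lower (15.4% and 38.5%), all by small amounts. The protease gene MBTPS2 was at -0.19 ± 0.05 (SE), the factor YY1 at -0.12 ± 0.03 and ATF6 itself at -0.10 ± 0.03 (limma, adjusted p = 0.00838), while ATF6B was not called (-0.06 ± 0.04). GTF2I, 1 of the 2 higher genes (0.08 ± 0.03), could not be tested with the GC and length trend removed. Of the others 0 were then called higher and 2 lower, where 29.0% and 24.1% of all genes were. Those lower were YY1 (-0.08) and ATF6B (-0.11, limma, adjusted p = 0.000323). ATF6 (-0.03, adjusted p = 0.277) and MBTPS2 (-0.08, 0.114) were then not called. In the PERK arm 3 of 16 tested were higher and 8 lower. ATF4, the transcription factor whose translation PERK favours, fell by 0.54 ± 0.03 and VLDLR by 0.46 ± 0.04, whereas DDIT3, which encodes the stress factor CHOP, rose by 0.42 ± 0.05 and the phosphatase subunit gene PPP1R15A by 0.43 ± 0.04. Among 13 IRE1 arm partners 3 were higher and 5 lower (23.1% and 38.5%). TMBIM6, an ER membrane protein that inhibits cell death, was at -0.26 ± 0.03, the RNA cyclase RTCA at -0.16 ± 0.04 and C3orf58 at 0.16 ± 0.04.

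**Figure D4:**
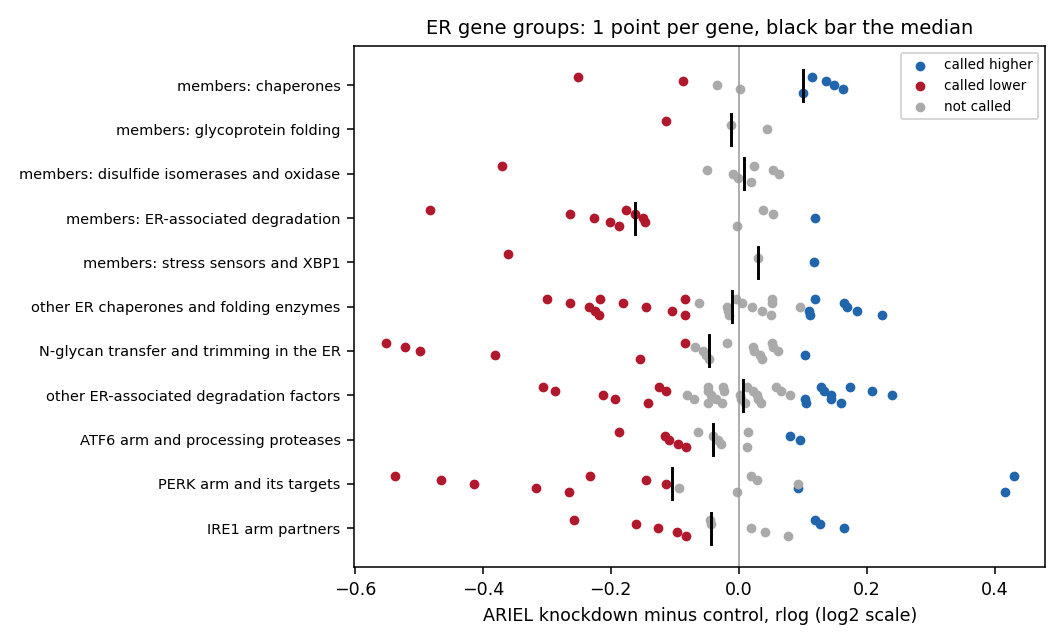
Each point is the rlog difference of 1 gene, ARIEL knockdown minus control (log2 scale), in the 5 role groups of the 36 genes and in 6 further pathway lists, with the median of each group as a black bar. The degradation genes have the lowest median of the role groups (-0.16), while the wider list of degradation factors is centred near 0 (0.01).

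Some of these rows share sequence with other annotated genes. In GENCODE 29 exons of DNAJB11, TXNDC5 and HSP90B1 overlap those of another gene on the same strand, and exons of 14 of the 36 genes overlap a gene on the opposite strand, among them PDIA6 with ATP6V1C2 and DNAJB9 with THAP5. The libraries were strand-specific, but whether the counting used strand is not given in the sources used here.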

How the data were processed

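RNA from 4 Jurkat libraries, 2 control and 2 ARIEL knockdown as their titles state, was read as 100-base pairs. Per the submitters' processing notes, the genome build was hg19 and the tools were DESeq2 1.12.4, HTSeq 0.6.1 and STAR 2.5.2a, with no role stated. Which annotation was counted was not given. The table the authors deposited holds, per the file headers, a log2-scale rlog value for each library, a log2 fold change with its SE, a test score, a p-value and an adjusted p. The table holds 0 spike-in rows, although the labels describe adding ERCC RNA in proportion to cells, and 4365 rows at 0 in every library.

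limma 3.58.1 (R 4.3.3; eBayes with a trend on level) was run on the rlog values of the 14601 genes with a mean of at least log2 of 10, without pseudocount, since the values are logarithms, and tested on simulated data. Prior degrees of freedom were infinite, so genes of 1 level share 1 spread. p-values were adjusted by Benjamini-Hochberg over all genes at 0.05.

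All 36 genes are accounted for. Values by library are given for HSPA5, ERN1, EIF2AK3, XBP1 and up to 3 called genes per role with the largest difference; DERL3 was added after its values were seen. Of each pathway list, the 3 called genes with the smallest adjusted p are named, with ATF4, DDIT3, ATF6 and ATF6B. The members, lists and tests were chosen with earlier results of these data known. Of 132 pathway genes listed, 131 matched a row. Alternatives were another filter, no trend, no shared spread, quantile or median scaling, GC and length trend removal (splines, 5 degrees of freedom each), a replicate block, leaving out each library and the authors' deposited statistic. Motifs and words were searched with Python 3.11.15. Protein features were not analysed here, and 1 of the marker lists is not reported here.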

Additional observations from a re-analysis of the deposited data

How the results depend on the processing

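Of the 21 called genes, 13 were called in the same direction under every alternative that shares the spread between genes, among them 12 of the 14 lower genes, all 9 lower degradation genes, and 1 of the 7 higher genes, DNAJB11. When variances were not shared between genes (2 residual degrees of freedom), limma called 0 of the 36 genes, 0 of the pathway list genes and 0 genes over the table, in either direction, although 18 of the 36 and 4561 of all genes had an unadjusted p under 0.05. Adjusted p for the 21 genes then lay between 0.059 and 0.237. Without 1 library at a time, 3 to 6 of the 36 genes were higher and 12 to 14 lower, the fewest higher being 3 without ARIEL knockdown replicate 2 and 4 without ARIEL knockdown replicate 1. Of the pathway list genes 13 to 25 were higher and 31 to 42 lower, and over all genes 2004 to 3061 were higher and 2221 to 3127 lower, with the fewest higher in both cases without ARIEL knockdown replicate 2; the lone library of a group is assumed to vary like the other group.

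With the replicate number as a block, 8 of the 36 genes were higher and 14 lower, TXNDC5 being the added call (adjusted p = 0.0225), and 3722 genes were higher and 3704 lower in all. Replicate differences were correlated at 0.198 between the groups, but the labels do not say what a number shares, so the block is not the main result. ERO1LB changed sign with the GC and length trend removed, from -0.01 to 0.0892 (adjusted p = 0.0303). Allowing 1 mismatch in ERSE raised the genes with a match from 8 to 15 of 33, SEL1L among them, against 1.89% of all genes. With no counts, no limit from depth can be given.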
